A study of Arabidopsis thaliana with 6 samples.

Results

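GH3 enzymes and Aux/IAA proteins are products of auxin-responsive genes that damp the auxin signal at opposite ends of the pathway. Their transcripts were read here in root tips of Arabidopsis thaliana. The account covers 7 genes out of 13333 that could be named on the array, with 1 probe set each. The GH3 class held GH3.5 (AT4G27260), GH3.3 (AT2G23170) and GH3.1 (AT2G14960). The Aux/IAA class held IAA18 (AT1G51950), IAA20 (AT2G46990), IAA29 (AT4G32280) and IAA30 (AT3G62100). The genes were picked by family after their mutant and wild type values on these arrays had been seen, and the rule takes the probe set with the highest mean signal. The differences below therefore describe these arrays, and the p-values beside them are not independent evidence.

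The mutant plants combined the phv-6 allele of PHV with phb-13 of PHB, cna-2 of CNA and athb8-11 of ATHB8, and they were set against Col er-2. These are genes of the HD-ZIP III family, plant transcription factors with a homeodomain and a leucine zipper. The labels do not say whether the mutant also carries er-2, and REV, the remaining family member, is not listed as mutated. About 200 primary root tips of 0.5 mm, cut by hand 4 days after germination, were pooled for each replicate, and 250 ng of total RNA was used for each ATH1 array. Each genotype had 3 arrays, which the study calls biological replicates.

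Auxin acts by bringing Aux/IAA repressors to TIR1/AFB receptors, which mark them for degradation and so free ARF transcription factors. Aux/IAA genes are themselves targets of ARFs, which closes a negative feedback loop. GH3 acyl-acid amido synthetases form a second loop, since many are induced by auxin and then conjugate it to amino acids. HD-ZIP III factors pattern the vascular tissue of the root.

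In each class 1 gene had a higher signal on every mutant array than on any Col er-2 array, and the other genes of the class overlapped between genotypes. These genes were GH3.5, with a log2 difference of 0.46, and IAA18, with 0.44. Such a separation, higher in the mutant, occurred in 7.55% of all probe sets. The other 5 genes differed by -0.02 to 0.13. With limma, 0 of the 7 had a Benjamini-Hochberg adjusted p under 0.05 over all 22746 probe sets, a level that 0.0264% of probe sets reached. At an unadjusted p under 0.05 there were 2 of 7, both higher in the mutant, where 4.21% of all probe sets were higher and 3.26% lower at that level. In whole-tip RNA a change in the number of cells of a type and a change in RNA per cell cannot be told apart.

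The arrays were close to each other, with median log2 signals of 5.56 to 5.59 and correlations of 0.989 to 0.996 over the 15 pairs. The medians were higher on the mutant arrays, by 0.02 on average. The file holds no detection calls. On the scale of all probe sets, mean signals lay at the 49.8th percentile for GH3.5, the 47.1st for GH3.1, the 45.2nd for IAA20, the 43.4th for IAA30 and the 36.2nd for IAA18. IAA29 and GH3.3 were dimmest, at the 26.8th and 15.5th percentiles. A small difference in such signals is one of signals and does not bound the transcript. As a limited check of the genotype, PHV, a mutated gene, had log2 signals of 4.64, 4.93 and 4.66 in the mutant, against 5.49, 5.80 and 5.68 in Col er-2. It differed by -0.92, with a limma and Benjamini-Hochberg adjusted p of 0.0639. PHV was the only 1 of 6 entries for HD-ZIP III genes and ER that could be named. ATHB8, CNA and PHB were therefore not checked.

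**Figure D1:**
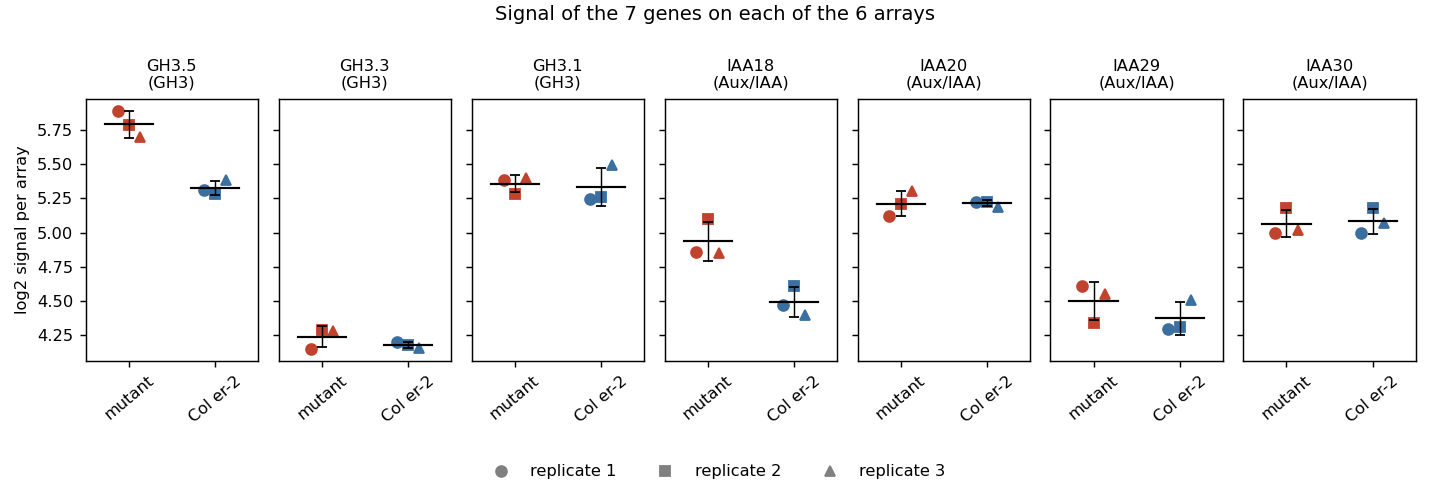
Log2 signal of each of the 7 genes on the 6 arrays, mutant left and Col er-2 right in each panel. Symbols mark the replicate number, bars the mean and whiskers the SD (n = 3). The genotypes separate for GH3.5 and IAA18, by gaps of 0.31 and 0.24, and overlap for the other 5 genes. Of all probe sets 7.55% separate in this direction.

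GH3.5, also named WES1, conjugates indole-3-acetic acid and can also act on salicylic acid. Its log2 signals were 5.89, 5.79 and 5.69 on the mutant arrays, against 5.31, 5.28 and 5.38 on the Col er-2 arrays. The lowest mutant array lay 0.31 above the highest Col er-2 array, so the genotypes did not overlap. Non-overlap in this direction occurred in 7.55% of all probe sets. The means were 5.79 ± 0.10 in the mutant and 5.33 ± 0.05 in Col er-2 (SD, n = 3 each). The difference of 0.46 (SE 0.08, 95% confidence interval 0.27 to 0.66) corresponds to 1.38-fold in signal, with an interval of 1.21 to 1.58. The adjusted p was 0.196 with limma and Benjamini-Hochberg. By size the difference ranked 164 among the 13333 named genes, or in the top 1.23%.

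GH3.3 is an auxin-induced amido synthetase that converts indole-3-acetic acid to conjugates such as the aspartate form. Its log2 signals were 4.15, 4.29 and 4.28 in the mutant, against 4.21, 4.18 and 4.16 in Col er-2. Mutant arrays lay both below and above the Col er-2 arrays. The difference was 0.06 (95% confidence interval -0.12 to 0.24).

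GH3.1 belongs to the same group of auxin-conjugating enzymes. Its log2 signals were 5.39, 5.28 and 5.40 in the mutant, against 5.25, 5.26 and 5.49 in Col er-2. The highest array of all was a wild type one, replicate 3. The difference was 0.02 (95% confidence interval -0.20 to 0.24). The intervals of GH3.3 and GH3.1 both ended below the lower bound of GH3.5, and the difference between these genes was not tested.

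IAA18 is an Aux/IAA protein with the degron that auxin receptors bind, and stabilising mutations in it disturb lateral root and embryonic root formation. Its log2 signals were 4.86, 5.10 and 4.86 on the mutant arrays, against 4.48, 4.61 and 4.40 on the Col er-2 arrays. The genotypes did not overlap, with a gap of 0.24, and replicate 2 was the highest array of each genotype. Of all probe sets 7.55% did not overlap in this direction. The means were 4.94 ± 0.14 in the mutant and 4.50 ± 0.11 in Col er-2 (SD, n = 3 each). The difference of 0.44 (SE 0.10, 95% confidence interval 0.21 to 0.67) corresponds to 1.36-fold in signal, with an interval of 1.16 to 1.59. The adjusted p was 0.306 with limma and Benjamini-Hochberg, and the difference ranked 188 of 13333 by size. IAA18 varied more between replicates than GH3.5, with a within-genotype SD of 0.12 against 0.08, at the 51.7th and the 19.8th percentiles of named genes.

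IAA20 and IAA30 lack the canonical degron, encode long-lived proteins, and have been described as repressors that limit xylem formation in the root. IAA20 had log2 signals of 5.12, 5.21 and 5.30 in the mutant, against 5.23, 5.23 and 5.19 in Col er-2. The Col er-2 arrays lay inside the range of the mutant arrays. The difference was -0.0038 (95% confidence interval -0.19 to 0.18), so the signal interval ran from 0.877-fold to 1.13-fold.

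IAA30 had log2 signals of 4.998, 5.177 and 5.022 in the mutant, against 4.997, 5.177 and 5.072 in Col er-2. Same-numbered arrays nearly coincided for replicates 1 and 2, and replicate 2 was again the highest of each genotype. The difference was -0.02 (95% confidence interval -0.22 to 0.19). The upper bounds of IAA20 and IAA30 lay below the lower bound of IAA18, while that of IAA29 lay above it. The difference between these genes was not tested.

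IAA29 is an Aux/IAA gene known for its induction by auxin and by shade in shoots. Its log2 signals were 4.61, 4.34 and 4.55 in the mutant, against 4.30, 4.31 and 4.51 in Col er-2. Mutant arrays 1 and 3 were the highest of all, and mutant array 2 lay among the Col er-2 arrays. The difference was 0.13 (95% confidence interval -0.11 to 0.36), or up to 1.29-fold at the upper bound.

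**Figure D2:**
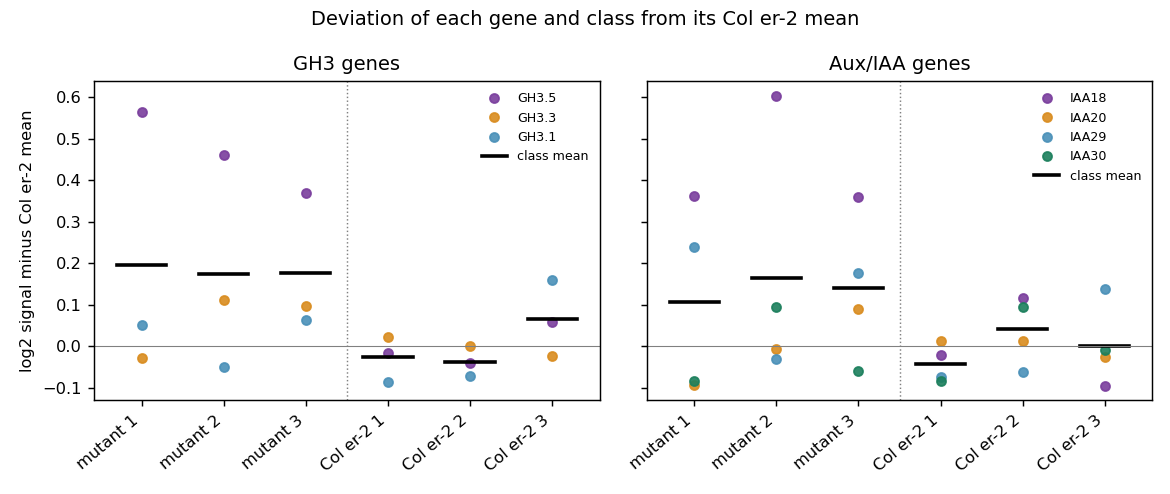
Deviation of each gene on each array from its own Col er-2 mean, in log2 units, for the GH3 class (left) and the Aux/IAA class (right), mutant arrays first. Points are genes and bars the class mean on that array. GH3.5 and IAA18 stand above the other genes of their class on all 3 mutant arrays.

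The classes were then set against each other. Each gene was expressed as its deviation from its Col er-2 mean and averaged over the class on each array. The GH3 mean was 0.20, 0.17 and 0.18 on the mutant arrays, against -0.03, -0.04 and 0.06 on the Col er-2 arrays. The Aux/IAA mean was 0.11, 0.17 and 0.14 on the mutant arrays, against -0.04, 0.04 and 0.0015 on the Col er-2 arrays. The GH3 mean minus the Aux/IAA mean was 0.09, 0.0082 and 0.04 in the mutant, against 0.02, -0.08 and 0.06 in Col er-2. On this measure mutant arrays 2 and 3 lay within the range of the Col er-2 arrays and mutant array 1 just above it. The genotypes differed in it by 0.04, less than the SD of 0.07 among the Col er-2 arrays and close to the 0.04 among the mutant arrays.

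Both class means rested mostly on 1 gene. Without GH3.5, the other 2 GH3 genes averaged 0.01, 0.03 and 0.08 in the mutant, against -0.03, -0.04 and 0.07 in Col er-2. Without IAA18, the other 3 Aux/IAA genes averaged 0.02, 0.02 and 0.07 in the mutant, against -0.05, 0.02 and 0.03 in Col er-2. The remaining genotype difference was 0.04 in each class, and the arrays overlapped in both. The median difference was 0.06 in the GH3 class and 0.06 in the Aux/IAA class, beside 0.0083 over all named genes. The class medians were not stable. With median centring they were 0.035 for GH3 and 0.037 for Aux/IAA, and with 1 array left out they reached 0.104 and 0.102, without mutant replicate 1 and without mutant replicate 2. In the GH3 class 3 of 3 genes had higher means in the mutant, and in the Aux/IAA class 2 of 4. Over all named genes it was 7050 of 13333. GH3.1 was counted as higher at 0.02, and with median centring it was at -0.0040. No p is given for a class, since its genes were chosen with their values known.

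The rest of both families was read from lists of auxin genes. Of the 16 other GH3 entries 8 could be named, and of the 25 other Aux/IAA entries 3. None of these 11 passed the adjusted threshold of limma, none had an unadjusted p under 0.05, and none separated the genotypes. Over all probe sets those shares were 0.0264%, 7.47% and 13.1%, so counts of 0 among so few genes are near the background. Mean signals of 5 of the 8 GH3 genes and 1 of the 3 Aux/IAA genes lay below the 35th percentile of all probe sets. For these dim genes the counts of 0 do not bound the transcripts. Among the GH3 genes 6 had higher means in the mutant and 2 lower, beside 7050 and 6283 of all named genes. The median difference of these GH3 genes was 0.11. AT5G51470, which has the smallest p of them, had log2 signals of 6.47, 6.26 and 6.04 in the mutant, against 5.20, 6.37 and 5.90 in Col er-2. Its difference of 0.44 was near that of GH3.5, but Col er-2 replicate 1 lay far below the other arrays and the 95% confidence interval ran from -0.17 to 1.04. The lowest difference in the family was that of GH3.17, an amido synthetase that acts on auxin in roots. GH3.17 had log2 signals of 7.31, 7.28 and 7.76 in the mutant, against 7.38, 7.81 and 7.95 in Col er-2, a difference of -0.26 (95% confidence interval -0.67 to 0.14).

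IAA31, IAA33 and IAA34 lack the canonical degron, wholly or in part, as IAA20 and IAA30 do. The differences were -0.05 for IAA31, 0.01 for IAA33 and -0.11 for IAA34, each with an interval that includes 0. The 5 genes without a canonical degron thus ran from -0.11 to 0.01. Mean signals lay at the 8.49th percentile of all probe sets for IAA31, the 51.6th for IAA33 and the 39.5th for IAA34. A small difference in a signal as dim as that of IAA31 does not bound the transcript. Of the other 2 named Aux/IAA genes, IAA18 stood at 0.44 and IAA29 at 0.13 with an interval that includes 0, so any contrast with the 5 rests on IAA18 alone. The grouping was made after the values were seen and was not tested.

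**Figure D3:**
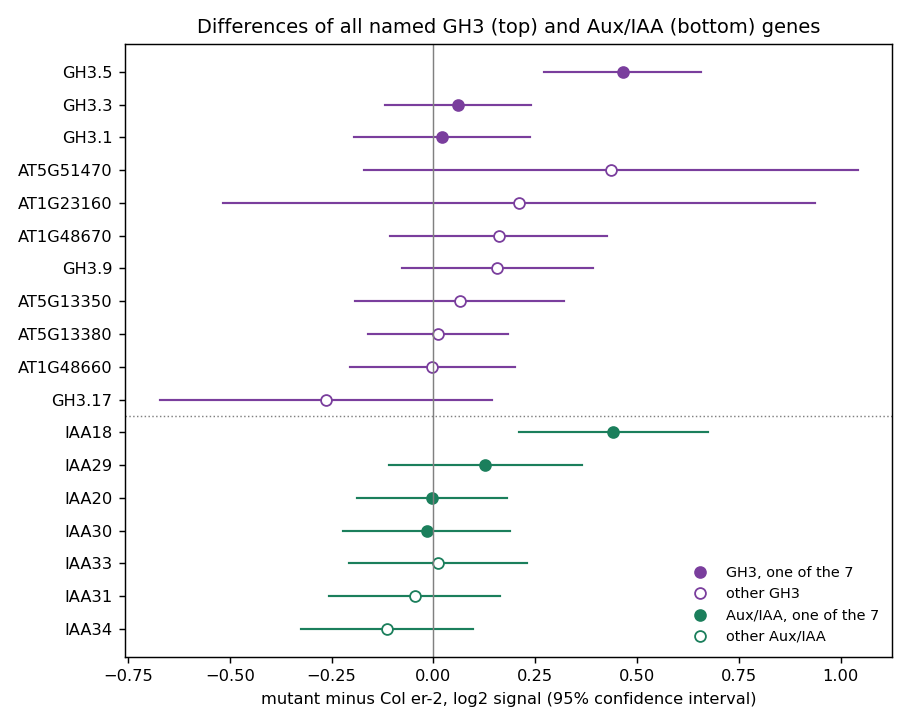
Mutant minus Col er-2 difference in log2 signal, with its 95% confidence interval from the limma fit, for the 11 named GH3 genes (top) and the 7 named Aux/IAA genes (bottom). Filled points are the 7 genes described here. The intervals of GH3.5 and IAA18 lie above 0, and all the others include it.

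Upstream and downstream genes of the pathway were named less often. Auxin synthesis had 4 of 14 entries named, inactivation and conjugate hydrolysis 4 of 12, and auxin-induced LBD genes 2 of 5, while 0 entries for ARFs, receptors and corepressors, and transporters could be named. Over all 8 lists 21 of 120 entries were named. Of these 13 had higher and 8 lower means in the mutant, beside 7050 and 6283 of all named genes. With limma 0 of the 21 passed the adjusted threshold and 0 had an unadjusted p under 0.05, where 7.47% of all probe sets did. Mean signals of 11 of the 21 lay below the 35th percentile of all probe sets. For these dim genes the counts of 0 do not bound the transcripts. YUC6, a flavin monooxygenase of auxin synthesis, differed by 0.15 (95% confidence interval -0.14 to 0.43). UGT84B1, which glucosylates auxin, differed by -0.09 (-0.29 to 0.12), and LBD16, a factor of lateral root initiation, by 0.09 (-0.18 to 0.35). The median over the 21 genes was 0.01.

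Markers of root tissues were read beside GH3.5 and IAA18. Of 16 named markers in 7 lists 0 passed the adjusted threshold of limma and 2 had an unadjusted p under 0.05, levels that 0.0264% and 7.47% of all probe sets reached. These were BBM of the stem cell niche, at 6.54, 6.71 and 6.71 in the mutant against 5.98, 6.43 and 6.28 in Col er-2, and AT1G62500 of the cortex. AT1G62500 was at 7.85, 8.15 and 8.30 in the mutant against 7.48, 7.74 and 7.37 in Col er-2. Both separated the genotypes. Of the same ground tissue list JKD differed by -0.14 and SNE by 0.31, and both overlapped. EXPA7 of the root hair list and RCA of the green tissue list separated the genotypes in the other direction, by -0.17 and -0.33. Of all probe sets 7.55% separated the genotypes with higher and 5.57% with lower signals in the mutant. The mean signal of the niche list ranged from 4.89 to 5.04 in the mutant and from 4.69 to 4.88 in Col er-2, and that of the root cap list from 7.15 to 7.37 in the mutant and from 6.75 to 7.11 in Col er-2. The ground tissue list ranged from 6.37 to 6.71 in the mutant and from 6.20 to 6.42 in Col er-2, and the green tissue list from 5.15 to 5.36 in the mutant and from 5.25 to 5.86 in Col er-2. The root hair list ranged from 4.41 to 4.47 in the mutant and from 4.37 to 4.71 in Col er-2, and the lateral root list from 4.45 to 4.59 in the mutant and from 4.40 to 4.54 in Col er-2. The handling marker ZAT10 ranged from 8.70 to 9.50 in the mutant and from 8.03 to 9.83 in Col er-2. The niche and root cap means were higher on each mutant array than on any Col er-2 array. The lowest mutant niche mean was 4.891, against a highest Col er-2 one of 4.881, and for the root cap 7.154 against 7.108. The means of the other lists overlapped, and how often such list means separate was not computed. In the niche list 3 of 6 entries could be named, and in the root cap list 2 of 3. Of the 3 niche genes only BBM separated the genotypes, while AGL42 and CLE40 differed by 0.06 and 0.04 and overlapped. Mean signals lay at the 59.7th percentile for BBM, the 24.3rd for AGL42 and the 1.45th for CLE40, so the 2 dim genes could show little. In the root cap list neither ACR4, at 0.08, nor AT1G65570, at 0.43, separated them by itself. The part of tissue makeup in the differences of GH3.5 and IAA18 was not tested.

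The place of the genes relative to the mutated loci was read from gene order in the TAIR10.1 gene table. IAA18 lies on chromosome 1 with 17 protein-coding genes between it and CNA, and IAA29 on chromosome 4 with 65 between it and ATHB8. GH3.5 lies on the same chromosome as ATHB8, with 622 genes between. GH3.3, GH3.1 and IAA20 have 1222, 2049 and 1319 genes between them and PHB, and IAA30 is on chromosome 3, which holds none of the mutated loci. Between IAA18 and CNA 10 genes could be named, and 0 of the 10 separated the genotypes, where 13.1% of all probe sets did. The differences of these 10 ran from -0.21 to 0.10, so that of IAA18 was larger than any of them.

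Within 20 genes on either side of IAA18, 24 were named and 4 separated the genotypes, all lower in the mutant, as were 5.57% of all probe sets, and all on the side away from CNA. That window ends 2 genes past CNA. Further on, AT1G52180, 3 genes past CNA, also separated the genotypes and was lower in the mutant, by -0.28, and AT1G52310, 16 genes past it, separated them and was higher, by 0.28. AT1G51850, the only one of the 24 with a larger difference than IAA18, was at 4.12 in the mutant and 4.64 in Col er-2, a difference of -0.52 with an adjusted p of 0.572 (limma, Benjamini-Hochberg). The other 3, AT1G51820, AT1G51840 and AT1G51860, differed by -0.14, -0.12 and -0.22. These genes were named after their values were seen. Between IAA29 and ATHB8, 5 of 30 named genes separated the genotypes, near the 13.1% of all probe sets. Whether a segment that travelled with the cna-2 allele bears on IAA18 was not tested.

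**Figure D4:**
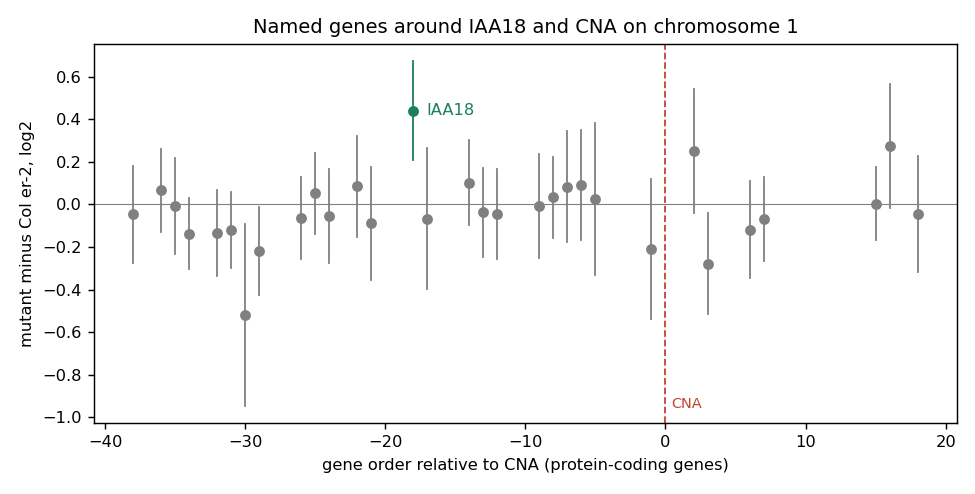
Mutant minus Col er-2 difference in log2 signal, with its 95% confidence interval, for the named genes around IAA18 and CNA, placed by gene order relative to CNA (dashed line). IAA18 stands at 0.44, and the 10 named genes between it and CNA lie between -0.21 and 0.10.

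The genes also varied among themselves between replicates. After each genotype's mean was taken off, IAA18 and IAA30 had a Pearson correlation of 0.87 over the 6 arrays, with replicate 2 highest in both genotypes. GH3.1 and IAA29 had 0.89, with mutant replicate 2 low and Col er-2 replicate 3 high in both genes. GH3.5 and IAA20 had -0.97, and IAA18 and IAA29 had -0.88. These 4 are the most extreme of 21 pairs, all genes are read from the same arrays, and the values are descriptions of 6 points with the group means removed.

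The named genes with the most similar profiles were taken from 9172 or 9173 candidates with an SD of at least 0.1 over the 6 arrays, by Pearson correlation of log2 signals. For GH3.5 these were AT5G60160 (0.990) and AT3G62310 (0.988), whose own differences were 0.19 and 0.27. For IAA18 they were AT1G79220 (0.993) and AT5G44000 (0.992), with differences of 0.20 and 0.17. These profiles include the difference between the genotypes, so genes that separate the genotypes can correlate highly with GH3.5 and IAA18 for that reason alone. Correlations above 0.9 were found for 92 genes with GH3.5, or 1.00% of candidates, and for 131 with IAA18, or 1.43%. IAA20 had 18 such genes and IAA29 had 37, while GH3.1 had 54, GH3.3 had 55 and IAA30 had 64. The closest profiles were AT4G10890 and TRM31 to GH3.3, AT4G19730 and AT1G48450 to GH3.1, AT3G51690 and AT1G58150 to IAA20, AT2G27090 and AT5G51380 to IAA29, and AT5G54130 and AT4G25710 to IAA30. Their correlations ran from 0.973 for AT5G51380 to 0.997 for AT4G19730.

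Leaving out each array in turn moved GH3.5 between 0.42, without mutant replicate 1, and 0.51, without mutant replicate 3. IAA18 moved between 0.36, without mutant replicate 2, and 0.50, without Col er-2 replicate 2. Both had an unadjusted p under 0.05 in all 13 alternative fits and an adjusted p above 0.05 in all 13, from 0.121 to 0.578 for GH3.5 and from 0.112 to 0.805 for IAA18. These fits reuse the arrays on which the genes were chosen, so they are not independent evidence. Some of the settings leave the difference as it was by construction. In the fit that leaves out dim probe sets, IAA18 was kept only through its mutant signal, as its Col er-2 mean lay below the cut. IAA29 was less steady, from 0.07 without mutant replicate 1 to 0.21 without mutant replicate 2. GH3.3 ran from 0.03 to 0.10, and GH3.1, IAA20 and IAA30 took both signs.

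**Figure D5:**
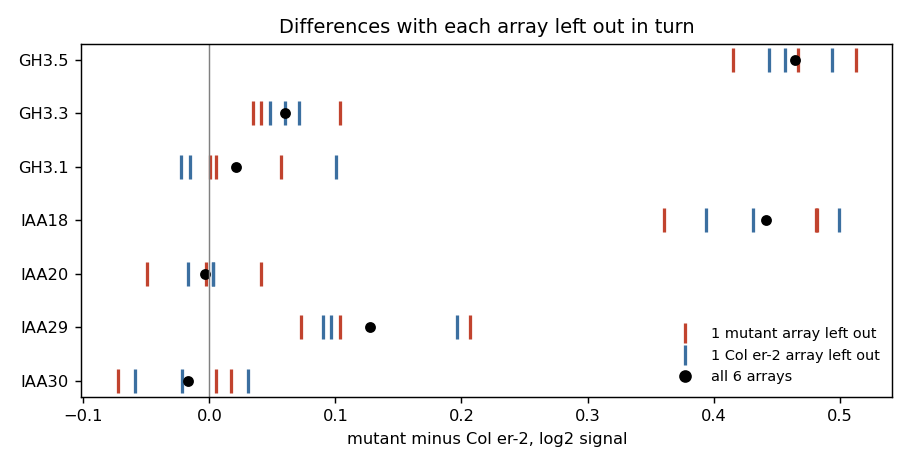
Mutant minus Col er-2 difference in log2 signal of each gene with all 6 arrays (black points) and with 1 mutant (red) or 1 Col er-2 array (blue) left out. GH3.5 stays between 0.42 and 0.51 and IAA18 between 0.36 and 0.50, while GH3.1, IAA20 and IAA30 fall on both sides of 0.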

How the data were processed

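Total RNA of dissected root tips was measured on 6 Affymetrix ATH1 arrays. The table the authors deposited holds a log2 signal for each of 22810 probe sets on every array. Per the submitters' processing notes, which give no versions or roles, the tools were Affymetrix Expression Console, RMA and limma. The values lie in the range of RMA log2 signals. RMA quantile-normalizes arrays, which hides shifts shared by most genes, and compresses differences of dim probe sets. No batch is given by the labels.

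After 64 control probe sets were left out, 22746 were fitted as mutant minus Col er-2 with limma 3.58.1 in R 4.3.3 (lmFit, eBayes), with Benjamini-Hochberg adjustment over all of them. The fit was tested on simulated data with 100 probe sets changed at each size. It recovered 81.8% of differences of 1 and 29.4% of differences of 0.5. Such shares depend on how many probe sets change, which is not known for the real arrays. A difference near 0.5 was thus mostly missed there. Names came from a probe table matched to the TAIR10.1 gene table by gene ID or locus. Of the probe sets tested, 13513 named 1 gene, 503 several and 8730 are unnamed here. A gene was represented by its probe set with the highest mean, and each of the 7 genes had 1. The number of arrays limits precision, with a median SE of 0.10. The build behind the authors' annotation is not given in the sources used here, and the TAIR10.1 table served only for names and gene order.

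The genes, lists and tests were chosen with earlier results of these data known. Named were the 7 genes, PHV, the list members with an unadjusted p under 0.05 or else the 1 with the smallest p, and the 2 most similar profiles per gene. Others named were chosen after their values were seen. Alternatives were a fit without each array, a block for the replicate number, leaving out dim probe sets, trend and robust eBayes, median centring, repeated quantile normalization, array weights and an equal-variance test. Deviations of same-numbered arrays from their genotype means correlated at 0.504, 0.065 and 0.176, highest for the first replicates. The labels do not say that same-numbered arrays are pairs, so the main fit has no block. Whether the first replicates share an effect was not tested.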

Additional observations from a re-analysis of the deposited data

How the results depend on the processing

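Of 89 recomputed tests of the 7 genes 0 passed the threshold. In 26 of them the setting leaves the difference itself as it was by construction, and of the other 63 differences 52 kept their sign and 11 turned it. With median centring GH3.1 was at -0.0040, and with repeated quantile normalization at -0.0028. With array weights IAA20 was at 0.021. Leaving out 1 array gave -0.022 to 0.101 for GH3.1, -0.050 to 0.041 for IAA20 and -0.073 to 0.031 for IAA30, 0.041 to 0.104 for the GH3 class median and 0.046 to 0.102 for the Aux/IAA class median. The GH3 median moved by over 1.5 times without mutant replicate 1, to 0.104, and without Col er-2 replicate 3, to 0.101, and the Aux/IAA median without mutant replicate 2, to 0.102, and with array weights, to 0.097. Median centring lowered both by over 1.5 times, to 0.035 for GH3 and 0.037 for Aux/IAA. The replicate number as a block, which does not establish pairs, changed no call among the 7 genes, with adjusted p of 0.122 for GH3.5 and 0.112 for IAA18. Over all probe sets it called 109, against 6 without it. The count was 27 with trend and robust eBayes, 11 with repeated quantile normalization, 22 with array weights, 1 with the equal-variance test and 1 to 8 with 1 array left out. The cause was not tested. Of the other auxin genes 0 were called with the block or with any array left out, and 11 of these 21 lie below the 35th percentile. GH3.3 and IAA29 lie below the 35th percentile and were not in the fit without dim probe sets, and no other probe set was given for any of the 7 genes. IAA18 was kept in the fit without dim probe sets with an overall mean of 4.72, above the cut of 4.67. Its Col er-2 mean of 4.50 lay below that cut, so it was kept only through its mutant signal. That fit is therefore no further support for IAA18. Of the 7 genes, low signal limits GH3.3 and IAA29 most.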
